A study of Rattus norvegicus with 5 samples.

Results

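Neuropeptide precursor genes and genes of the dense-core granule machinery were followed in cultured rat dorsal root ganglion cells. The set was a list of 34 gene symbols, and all 34 were present among the 33014 genes of the combined expression table. It held 17 peptide precursors, 2 nucleobindins, 7 granins and related granule proteins, 4 processing enzymes, and 4 proteins of the granule membrane or of granule release. The data were 5 RNA-seq libraries of 1 group, so no condition was compared with another, and comparisons were made between genes within libraries. The dorsal root ganglia, which lie along the spinal cord and hold the cell bodies of sensory neurons, came from wild-type (WT) Sprague Dawley rats at postnatal day 10, with 10 pups in the litter. Dissociated cells were seeded at 5000 per well, were given PBS, a buffered saline, after 1 day and were lysed after 8 days, with 3 wells pooled for a library. The series concerns a drug screen for chronic pain that records neuronal firing by optical means. The labels do not place the libraries in separate litters or cell preparations, so p-values here cover no more than the variation among these libraries, some or all of which may be technical.

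Neuropeptides are made as longer precursors that enter the secretory pathway. Granins help to load the cargo into dense-core granules, where proprotein convertases cut it at basic residues, a carboxypeptidase trims the ends and an amidating enzyme finishes many of the peptides. The granules travel along the axon and release their content on strong calcium signals. In sensory neurons such peptides take part in pain, itch and neurogenic inflammation, and several precursors are known to be induced in these neurons by nerve injury.

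Levels are given as TPM, estimated reads scaled by transcript length and to a total of 1000000 in every library. They are means ± SD over the 5 libraries unless stated otherwise. A gene was called detected at 1 TPM or more in every library. By that call 29 of the 34 genes were detected (85.3%), against 41.3% of all 33014 genes. All 15 granins, enzymes and granule membrane or release genes passed, as did both nucleobindins and 12 of the 17 peptide precursors. The median level was 84.7 TPM over those 15 machinery genes and 4.67 TPM over the peptide precursors, against 0.297 TPM over all genes. Together the 34 genes took 3310, 3527, 3312, 3349 and 3367 TPM in replicates 1 to 5, or 0.337% of all TPM. The machinery accounted for 2194 ± 77.8 TPM of this sum and the peptide precursors for 728 ± 9.07 TPM.

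**Figure D1:**
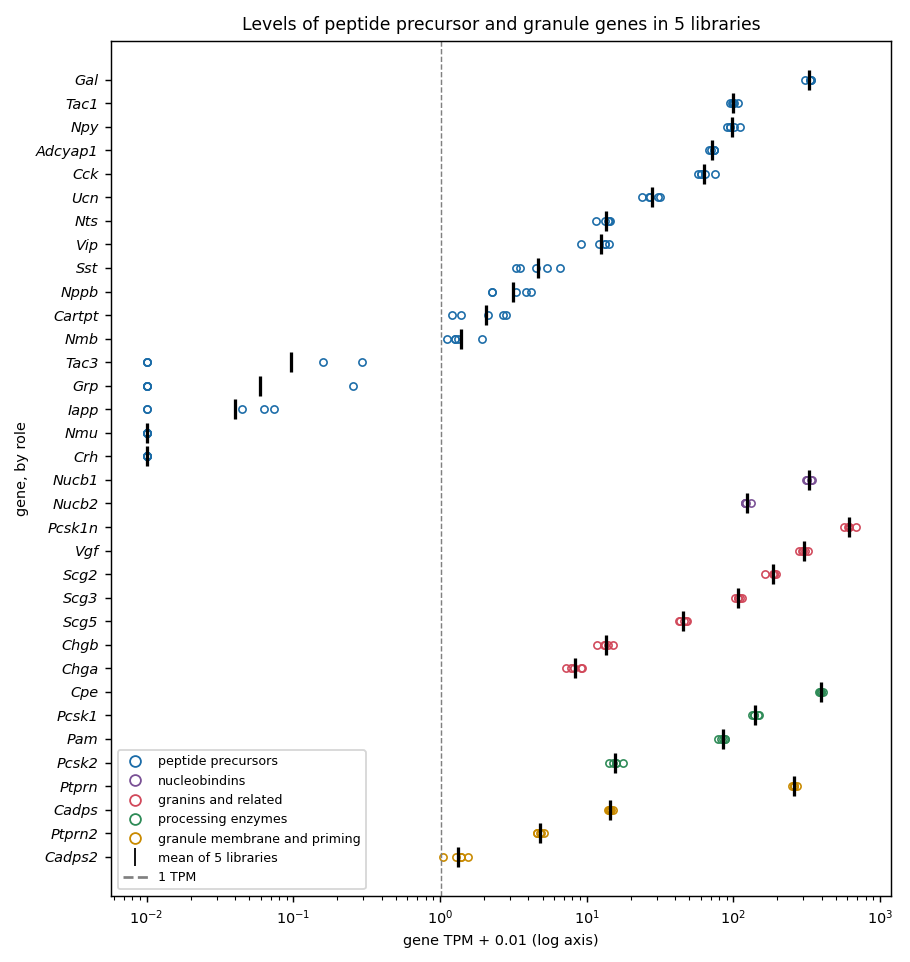
TPM of each of the 34 genes in the 5 libraries (open circles; log axis after adding 0.01 TPM) with the mean as a black bar, grouped by role and ordered by level; the dashed line marks 1 TPM. Pcsk1n at 615 TPM, Cpe at 395 TPM and Gal at 329.6 TPM lie farthest right, and Tac3, Grp, Iapp, Nmu and Crh lie left of the line.

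The libraries held 21596608 to 27913098 estimated reads, and 1 TPM of a transcript with 1 kb effective length was backed by 13.3 to 17.4 reads. The cultures were mixed, and all 10 genes of a neuronal marker list, all 8 of Schwann and satellite glia, all 6 of fibroblasts and all 7 of macrophages were detected. Of 8 sympathetic and chromaffin genes, which would mark other peptide-rich cells, only Th passed, at 3.70 ± 1.18 TPM, and the list summed to 3.47 to 6.48 TPM. The defining genes Dbh and Pnmt were near 0, at 0.0141 and 0.0468 TPM. Of 5 motor neuron genes, Slc5a7 and Isl2 were detected, and Chat stood at 0.00804 TPM. In bulk RNA, fewer cells that express a gene and less RNA per cell cannot be told apart.

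Sequences upstream of the genes are shown for members that share a sequence motif. The letters TGACGTCA are the full cAMP response element, the sequence bound by CREB-family factors, which many neuropeptide genes are known to carry. In RefSeq sequences of 250 bases before to 50 bases after the gene start (build GRCr8, which is not the build of the deposited data), 28 of the 34 genes had an entry. Tac3, Cck, Crh, Nucb2, Chga and Pcsk1 had none. Motifs were searched only in the 250 bases before the start, in the members and in all entries alike. TGACGTCA, which reads the same on both strands, was found in 4 of the 28 (14.3%), against 1.59% of all 33469 entries. The 4 were Vgf, Scg2, Ucn and Cartpt. The stretches from 150 to 31 bases before the start are printed 5′ to 3′ on the strand of the gene for these genes, and for Gal and Vip, which hold the shorter core TGACG and a TATA box. Grp, with only 2 reads in all libraries, also holds both but is not printed. Capitals mark TGACGTCA, TGACG and TATAAA, searched on both strands.

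Vgf: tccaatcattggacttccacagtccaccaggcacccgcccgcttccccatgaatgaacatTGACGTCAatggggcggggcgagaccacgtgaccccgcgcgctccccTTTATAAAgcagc
Scg2: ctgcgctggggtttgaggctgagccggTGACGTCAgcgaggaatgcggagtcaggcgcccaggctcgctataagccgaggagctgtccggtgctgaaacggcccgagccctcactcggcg
Ucn: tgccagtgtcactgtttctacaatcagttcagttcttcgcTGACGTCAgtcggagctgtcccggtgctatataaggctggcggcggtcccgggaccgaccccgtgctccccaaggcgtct
Cartpt: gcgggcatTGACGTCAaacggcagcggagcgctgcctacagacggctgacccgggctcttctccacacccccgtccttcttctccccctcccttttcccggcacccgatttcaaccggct
Gal: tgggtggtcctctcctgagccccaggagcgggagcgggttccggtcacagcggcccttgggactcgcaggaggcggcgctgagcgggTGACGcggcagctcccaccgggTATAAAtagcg
Vip: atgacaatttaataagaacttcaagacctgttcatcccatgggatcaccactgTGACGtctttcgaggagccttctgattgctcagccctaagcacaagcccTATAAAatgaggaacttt

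The stretches lie at chr12:25277051-25277170 (minus strand) for Vgf, chr9:88256897-88257016 (minus strand) for Scg2, chr6:30957936-30958055 (plus strand) for Ucn, chr2:32991266-32991385 (minus strand) for Cartpt, chr1:210084603-210084722 (minus strand) for Gal and chr1:44470330-44470449 (plus strand) for Vip. The full element began 90 bases before the start in Vgf, 123 in Scg2, 110 in Ucn and 142 in Cartpt. The core TGACG, which is contained in the full element, was present on either strand in 16 of the 28 genes (57.1%), against 18.2% of all entries. It stood 63 bases before the start in Gal and 97 in Vip. TATAAA was present in 6 of the 28 genes (21.4%), against 12.9% of all entries, and 5 of those 6 were peptide precursors, of which 14 had an entry. In the Vgf stretch, matches to TATAAA on the sense and antisense strands overlap. The levels of the 4 genes with the full element ranged from 2.04 TPM for Cartpt to 301 TPM for Vgf. A match describes the letters only and shows no binding, and these motifs were picked after the levels were known. The search depends on the annotated gene start, so the absence of a match does not show that a gene lacks the element.

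Among the peptide precursors, Gal, which encodes galanin, was the highest. It had 307, 339, 332, 334 and 337 TPM in replicates 1 to 5, a mean of 329.6 ± 12.7 TPM and rank 440 of all genes. Replicate 1 was the low library and the other 4 lay within 332 to 339 TPM. Gal alone took 45.2% ± 1.41 of the summed precursor TPM. Tac1, the precursor of substance P and neurokinin A, had 107, 98.1, 101, 94.5 and 98.7 TPM. Npy, which encodes neuropeptide Y, had 111, 101, 89.9, 95.6 and 95.3 TPM. Both were highest in replicate 1, where Gal was lowest, and their ranges overlapped. Tac1 was 3.30-fold lower than Gal (log2 ratio −1.72 ± 0.12) and Npy 3.35-fold lower (−1.75 ± 0.16), in 5 of 5 libraries each, with adjusted p = 6.46e-10 and 2.92e-09 by limma. In estimated counts scaled to library size but not to length, the ratio of Tac1 over Gal was −1.02.

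Those ratios belong to 22 gene pairs, for which log2((TPM + 0.1)/(TPM + 0.1)) was tested against 0. All 22 passed at an adjusted p under 0.05, and 21 pointed the same way in all 5 libraries. The share of gene ratios that passed over the whole table was 94%, so passing is usual in these libraries and the sizes of the ratios carry the information. All genes fitted against a denominator share its values, and the adjusted p-values move with the fit settings. For Vgf over Chga, the limma adjusted p was 5.06e-15 as fitted and 4.30e-09 without the variance trend. For Chga over Chgb, it was 8.08e-06 as fitted and 0.000181 without the trend. Among genes with a mean TPM of at least 1, it was 8.64e-17.

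Adcyap1, which encodes PACAP, a peptide of nociceptors, followed with 67.9, 73.4, 70.8, 73.9 and 73.4 TPM. Its spread was small, with the lowest value in replicate 1. Per length, Tac1 stood 1.39-fold above Adcyap1, at 99.88 ± 4.81 TPM against 71.9 ± 2.53 TPM (log2 ratio 0.47 ± 0.12, higher in 5 of 5 libraries, limma adjusted p = 6.66e-06). Without length scaling the order turned round, with a log2 ratio of −1.04 (adjusted p = 7.42e-09). Unscaled counts rise with transcript length. The main Tac1 transcripts have 950 to 1049 bases, and those of Adcyap1 have 1262, 3245 and 3289 bases. Adcyap1 was 5.79-fold above Vip, its close relative that encodes vasoactive intestinal peptide (log2 ratio 2.53 ± 0.28, 5 of 5 libraries, limma adjusted p = 4.31e-25), and without length scaling the ratio was 3.21. The size of that p-value depends on the variance trend in the limma fit, without which the adjusted p was 1.79e-08. Vip had 14.3, 12.2, 13.4, 13.3 and 9.19 TPM, with replicate 5 apart on the low side. Cck, the cholecystokinin precursor, had 60.2, 63.9, 57.3, 60.6 and 74.7 TPM. Replicate 5 was here the high library, so Vip and Cck departed in opposite directions in it. The ranges of Adcyap1 and Cck overlapped.

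Ucn, which encodes urocortin, a peptide of the corticotropin-releasing hormone family, had 26.6, 27.2, 30.7, 31.5 and 23.7 TPM. Crh itself, the founding member of that family, had 0 reads in all 5 libraries, which allows up to 0.0430 TPM by the count of 3 reads that serves here as a floor over the group. Ucn was therefore at least 649-fold higher than Crh. Nts, the neurotensin precursor, averaged 13.5 ± 1.18 TPM and ranged from 11.5 to 14.4 TPM.

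The remaining detected precursors were low. Sst, which encodes somatostatin, had 3.28, 3.51, 4.54, 6.61 and 5.39 TPM. Nppb, whose natriuretic peptide carries itch signals in the mouse, had 4.16, 3.27, 2.24, 3.87 and 2.24 TPM. The 2 ranges overlapped, and replicate 1 had more Nppb than Sst while the other 4 libraries had more Sst. The mean log2 ratio of Sst over Nppb was 0.55 ± 0.65 (limma adjusted p = 0.0280), on totals of 140 and 96 reads over the 5 libraries. It no longer passed without replicate 3 (adjusted p = 0.107), replicate 4 (0.0972) or replicate 5 (0.176). Cartpt, which encodes the CART peptides, had 2.68, 1.39, 2.10, 2.82 and 1.20 TPM, a range of 2.34-fold and the widest relative spread of all detected members. Nmb, the neuromedin B precursor, had 1.33, 1.25, 1.26, 1.91 and 1.11 TPM.

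Of the 17 precursors, 5 were not detected. Tac3, the neurokinin B precursor, had 3 reads in all, pooled to 0.0870 TPM with an exact 95% Poisson interval of 0.0179 to 0.254 TPM. Tac1 stood 1148-fold above it, with a counting interval of 393 to 5566. Grp, which encodes gastrin-releasing peptide, had 2 reads, both in replicate 5, with an interval of 0.00538 to 0.160 TPM. Nmb stood 30.9-fold above Grp (8.55 to 255). Nmu, the neuromedin U precursor, had 0 reads, which allows up to 0.0604 TPM. Iapp, which encodes amylin, was listed at 0 to 0.0636 TPM, and Slco1a5, which overlaps it in the GRCr8 annotation, was at 0.0859 TPM. The named Iapp transcript had 0 reads over a mean effective length of only 92.4 bases, which allows up to 0.434 TPM, more than for Crh or Nmu. Intervals and floors cover counting error only. Those of the 2 ratios cover the error of the lower gene alone, with the means of Tac1 and of Nmb, which rests on 75 reads, taken as exact.

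Of 39 further peptide precursor genes in the table, 11 were detected. The 3 highest were Calca, which encodes CGRP and calcitonin, at 79.3 ± 4.13 TPM, Ucn2 (urocortin 2) at 35.7 ± 2.10 TPM and Adm (adrenomedullin) at 30.5 ± 5.90 TPM. All 3 were below Gal, Tac1 and Npy, and the 17 listed precursors summed to 728 ± 9.07 TPM, against 207 ± 7.50 TPM for these 39 genes.

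The granins held the largest sum of any role, at 1277 ± 66.2 TPM over 7 genes. Pcsk1n, which encodes proSAAS, an inhibitor of the convertase PC1/3, had 601, 683, 569, 610 and 612 TPM. It was the highest of the 34 genes, ranked 225 of all genes and took 48.1% ± 1.43 of the granin sum. Vgf, a granin induced by neurotrophins, followed at 281, 325, 292, 299.8 and 309 TPM. Both were highest in replicate 2. Scg2, the precursor of secretoneurin, had 165, 194, 189, 188 and 189.5 TPM. Replicate 1 stood apart on the low side, and the other 4 spanned 188 to 194 TPM. Scg3, which binds granule cargo to the membrane, had 102, 112, 114, 108 and 107 TPM. It was lower than Scg2 in 5 of 5 libraries (log2 ratio −0.77 ± 0.06, limma adjusted p = 1.38e-08). Scg5, which encodes 7B2, the chaperone of the convertase PC2, averaged 45.4 ± 2.57 TPM.

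The classical chromogranins were low. Chga, the marker of neuroendocrine cells and precursor of several peptides, had 7.87, 9.07, 8.25, 7.24 and 9.26 TPM. Chgb had 11.7, 13.2, 15.2, 13.4 and 13.9 TPM. The ranges of the 2 genes did not overlap, and Chga was lower than Chgb in 5 of 5 libraries (log2 ratio −0.69 ± 0.17, limma adjusted p = 8.08e-06). Scg2 stood 13.7-fold above Chgb (log2 ratio 3.77 ± 0.09, adjusted p = 3.45e-13) and Vgf 35.8-fold above Chga (5.16 ± 0.11, adjusted p = 5.06e-15), both by limma and in 5 of 5 libraries. Transcripts that could be named held only 24.1% of the Vgf level, or 72.8 TPM, and the ratio of Vgf over Chga was 3.09 with named transcripts alone and 3.72 for these without length scaling. Chgb and Chga came after Scg5 in level, and Chgb overlapped Nts, Vip and Cadps in range.

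The nucleobindins are calcium-binding proteins of the secretory pathway, and Nucb2 is the precursor of nesfatin-1. Nucb2 had 133, 120.7, 120.5, 120.4 and 123 TPM. Nucb1 had 338, 344, 318, 315 and 320.2 TPM. Replicate 1 was the high library for Nucb2, and the other 4 lay close together. Nucb2 was 2.65-fold lower than Nucb1 in 5 of 5 libraries (log2 ratio −1.40 ± 0.06, limma adjusted p = 1.51e-10). The order rests on the combined table: transcripts that could be named held only 1.55% of the Nucb1 level, and the ratio of named transcript sums was 4.64 on the log2 scale.

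**Figure D2:**
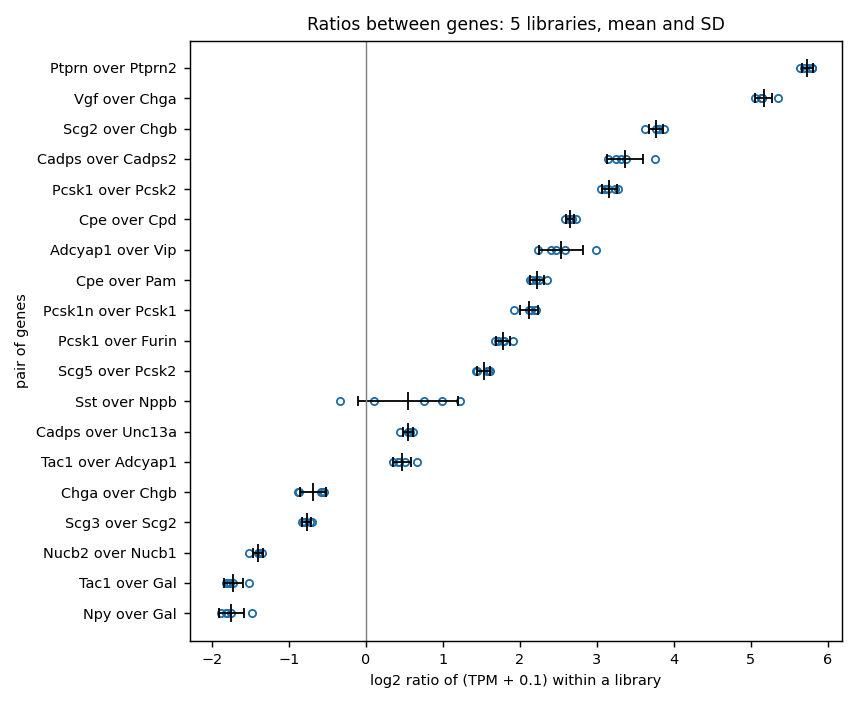
Log2 ratio of TPM + 0.1 between the genes of 19 pairs in the 5 libraries (circles), with the mean (vertical tick) and SD (horizontal bar); the 3 pairs with a gene of at most 3 reads are left out. Ptprn over Ptprn2 (5.73) and Vgf over Chga (5.16) are at the right, Npy over Gal (−1.75) at the left, and Sst over Nppb has circles on both sides of 0.

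The processing enzymes were led by Cpe, the carboxypeptidase that removes basic residues from peptide ends, with 406, 398, 393, 394 and 384 TPM. Its coefficient of variation of 2.00% was the smallest among the 29 detected members. Cpe took 62.0% ± 1.007 of the enzyme sum of 637 ± 8.66 TPM. Pcsk1, which encodes the convertase PC1/3, had 139, 147, 149, 134 and 138 TPM. Pcsk2, which encodes PC2, had 14.2, 17.6, 15.7, 15.1 and 15.9 TPM. Pcsk1 was 8.96-fold above Pcsk2 in 5 of 5 libraries (log2 ratio 3.16 ± 0.09, limma adjusted p = 5.73e-12), with no overlap, and the ratio was 4.30 without length scaling. Pam, the amidating enzyme, had 79.1, 85.7, 82.8, 88.0 and 87.8 TPM. Cpe was 4.66-fold above Pam (log2 ratio 2.22 ± 0.09, limma adjusted p = 4.26e-11), or 1.32 on the log2 scale without length scaling.

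Per length, each convertase was lower than the granule protein known to bind it. Pcsk1n was 4.34-fold above Pcsk1 (log2 ratio 2.12 ± 0.11, 5 of 5 libraries, limma adjusted p = 1.85e-10). Without length scaling this order turned round, to −0.70 (adjusted p = 5.26e-08). Unscaled counts rise with transcript length, and the Pcsk1 transcript has 5046 bases against 945 bases for Pcsk1n. Scg5 was 2.88-fold above Pcsk2 (log2 ratio 1.53 ± 0.09, 5 of 5 libraries, limma adjusted p = 3.56e-10), and without length scaling the ratio shrank to 0.18 (adjusted p = 0.00844). Against enzymes of the constitutive pathway, Pcsk1 was 3.42-fold above Furin, at 41.2 ± 1.98 TPM (log2 ratio 1.78 ± 0.09, limma adjusted p = 2.70e-10). Cpe was 6.30-fold above the related carboxypeptidase Cpd, at 62.6 ± 2.09 TPM (2.65 ± 0.05, limma adjusted p = 6.15e-11), and without length scaling the ratio was 1.48. Of 13 other enzymes that act on precursor proteins, 10 were detected. The highest were Ctsl, which encodes the protease cathepsin L, at 933 ± 32.1 TPM, Mbtps1, a convertase of the Golgi, at 89.99 ± 3.34 TPM, and Cpd.

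At the granule membrane, Ptprn, which encodes the granule protein IA-2, had 251, 272, 259, 260.2 and 258 TPM. Its paralog Ptprn2, which encodes phogrin, had 4.55, 4.83, 4.56, 5.15 and 4.91 TPM. Ptprn was 53.1-fold above Ptprn2 in 5 of 5 libraries (log2 ratio 5.73 ± 0.07, limma adjusted p = 4.05e-14), the largest ratio among the 19 pairs with more than 3 reads for both genes. Cadps, which encodes the granule priming factor CAPS1, had 14.1, 14.4, 15.2, 14.6 and 13.9 TPM. Cadps2, its paralog, had 1.27, 1.55, 1.03, 1.37 and 1.37 TPM. Cadps was 10.3-fold above Cadps2 (log2 ratio 3.37 ± 0.23, limma adjusted p = 6.44e-18, or 7.71e-09 without the variance trend). With a pseudocount of 1 the log2 ratio was 2.74. Cadps was also 1.46-fold above Unc13a, a priming factor of synaptic vesicles, at 9.86 ± 0.62 TPM (0.55 ± 0.06, limma adjusted p = 1.20e-06). Named transcripts held 35.0% of the Cadps level and 44.1% of the Cadps2 level, and with these alone the ratio of Cadps to Unc13a was −0.96.

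Most genes listed here for granule transport and release were detected, against 41.3% of all 33014 genes. In these mixed cultures, detection does not show which cells expressed them, or that they acted on granules. Of 14 genes of granule biogenesis and transport, 13 were detected, led by the Golgi GTPase Rab2a at 413 ± 14.5 TPM, the granule motor Kif1a at 125 ± 6.70 TPM and Vps52, of a tethering complex, at 81.3 ± 2.83 TPM. Slc18a1, a monoamine transporter, was not detected. Of 18 genes of granule release, 13 were detected, led by the synaptotagmin genes Syt4 at 509 ± 19.3 TPM and Syt5 at 88.8 ± 4.06 TPM and by Rab3a at 50.2 ± 1.91 TPM. Rph3al, Doc2a, Doc2b, Syt10 and Baiap3 were not. All 17 synaptic vesicle genes were detected, with a median of 45.1 TPM, led by Vamp2 at 217 ± 7.39 TPM, Cplx1 at 105 ± 4.05 TPM and Snap25 at 101 ± 6.88 TPM. Of 12 peptidases known to degrade secreted peptides, 11 were detected, led by Ece1 at 69.3 ± 1.95 TPM, Prep at 57.1 ± 1.06 TPM and Anpep at 50.9 ± 3.06 TPM. Dpp4, at 0.155 ± 0.0623 TPM, was the exception.

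In the order of levels, 13 of the 28 neighbouring pairs of detected members had ranges that did not overlap and 15 overlapped. The upper part of the order was separated by gaps: Pcsk1n above Cpe, Cpe above Gal, then Gal, Nucb1 and Vgf as a chain of overlapping ranges, and Ptprn, Scg2, Pcsk1 and Nucb2 each apart from the gene above. Scg3, Tac1 and Npy overlapped in a chain. Pcsk2, Cadps, Nts, Chgb, Vip and Chga did so as well, as did the 6 lowest detected genes, Ptprn2, Sst, Nppb, Cartpt, Nmb and Cadps2.

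Some genes gave more than 1 transcript. For Tac1, alternative splicing is known to yield forms with and without neurokinin A. Here 3 of its 4 named transcripts held 10% or more of its TPM in a library. The transcript of 1004 bases held 50.6% ± 1.74, that of 950 bases 24.6% ± 2.20 and that of 1049 bases 17.8% ± 1.79. The first is 45 bases and the second 99 bases shorter than the longest, and the files do not pair them with the named splice forms. Adcyap1 was led by a transcript of 1262 bases with 54.7% ± 2.22.

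Most of the remaining Adcyap1 TPM moved between transcripts of 3245 and 3289 bases. The longer one held 36.0% of Adcyap1 in replicate 2, 4.20% in replicate 1 and 0 in the other 3 libraries, while the shorter one was at 0 in replicate 2. Their sum was steadier, at 20.0, 26.4, 23.3, 26.2 and 26.3 TPM, so the assignment between these 2 transcripts is uncertain. Scg2 was split into 63.2% ± 1.27 for 2291 bases and 35.8% ± 1.33 for 2430 bases. Nucb2 was split into 77.4% ± 2.34 for 1644 bases and 22.6% ± 2.34 for 1546 bases. Among 18 named Pam transcripts, that of 3779 bases led with 57.1% ± 1.14, followed by 3725 bases with 20.5% ± 3.68 and 3230 bases with 12.6% ± 1.46. Ptprn was mostly 3533 bases, at 83.7% ± 1.59. Between libraries, the Pam transcript of 3725 bases ranged from 14.7% to 24.4%. Ptprn2, at a lower level, ranged from 40.9% to 76.1% for its transcript of 4563 bases.

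**Figure D3:**
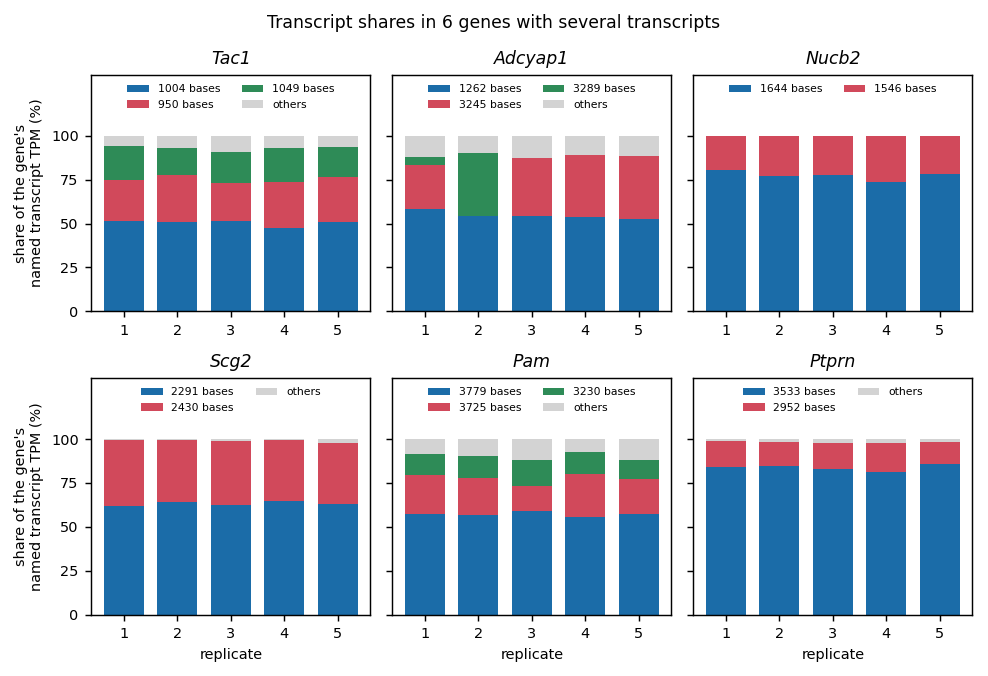
Share of named transcript TPM (%) in replicates 1 to 5 for 6 genes, with transcripts named by their length in bases and the remainder in grey. In Adcyap1 the transcript of 3289 bases (green) takes the place of that of 3245 bases (red) in replicate 2.

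Spread between libraries was small for most members. The coefficient of variation had a median of 6.24% over the 29 detected members and 5.59% over all detected genes. It was 5.50% over the 15 machinery genes and 11.01% over the 12 detected precursors, which are lower in level. At a mean of 10 TPM or more the medians were 5.16% for 22 members and 4.49% for 9421 genes. Vip (15.8%), Ucn (11.3%) and Cck (10.7%) were the most variable of those 22 members.

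**Figure D4:**
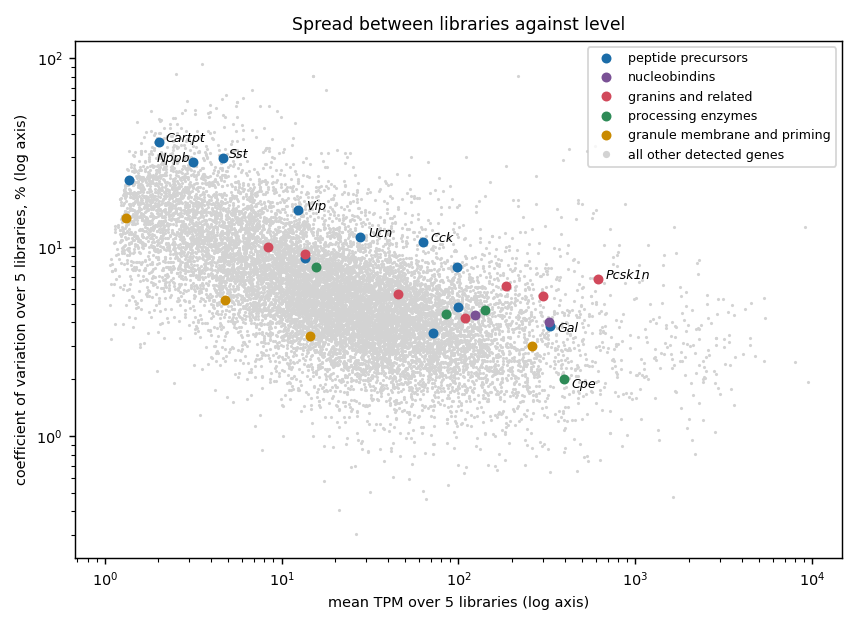
Coefficient of variation over the 5 libraries (%, log axis) against mean TPM (log axis) for all detected genes (grey) and the 29 detected members (coloured by role). Spread falls with level, and Cpe at 2.00% and Cartpt at 35.9% are the ends of the members' range.

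A test of counting error asked which genes varied beyond what the reads allow (edgeR with a dispersion of 0, deviance on 4 degrees of freedom, adjusted over all genes). Of the 24 members tested whose reads could be recovered from the transcript files, 14 exceeded counting error, against 34.2% of 8871 genes. They were Adcyap1, Vip, Gal, Npy, Cck, Nucb2, Pcsk1n, Scg2, Scg3, Chgb, Pcsk1, Cpe, Pam and Ptprn. Deeply counted genes passed at small variation, as Cpe did with adjusted p = 0.00428 by edgeR at 2.00% variation, on 54035 reads. Sst, at 29.5% variation and 140 reads, had an adjusted p of 0.0733 by edgeR, and Tac1 had 0.0617. Without replicate 1 the count was 6 of 24, namely Cck, Pam, Pcsk1, Pcsk1n, Ptprn and Vip, against 22.7% of all genes.

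Replicate 1 was the lowest library for 12 of the 29 detected members (41.4%), against 24.4% of all 13635 detected genes. The 12 were Adcyap1, Gal, Sst, Vgf, Scg2, Scg3, Scg5, Chgb, Pcsk2, Pam, Ptprn and Ptprn2, which included 5 of the 7 granins. It was the highest library for 6 others, Tac1, Vip, Npy, Nppb, Nucb2 and Cpe. The shift was small, with a median log2 deviation of −0.05 over the members and −0.09 over the granins in that library. Several other lists deviated there as well. Replicate 1 was lowest for 6 of 10 neuronal markers (median deviation −0.09) and for 13 of 17 synaptic vesicle genes (−0.08), and the 8 Schwann and satellite glia genes had a median deviation of −0.06. Of 8 endothelial and mural genes, 4 were detected, and 3 of these 4 were highest in replicate 1 (median deviation 0.22). The 3 were the contractile genes Acta2 and Tagln and, narrowly, Cdh5, at 19.6 TPM against 19.4 TPM in replicate 2. Tek was highest in replicate 2. The markers Pecam1, Cldn5, Rgs5 and Kcnj8 were not detected. Replicate 2 was the lowest for 0 of the 29 members, against 16.9% of all detected genes, and the highest for 8 (27.6% against 27.3%). In replicate 2 all 7 macrophage markers were at their lowest, with a sum of 1195 TPM against 1594 to 1894 TPM in the other 4 libraries. Whether cell type content differed between libraries, and its part in the members' deviations, was not tested.

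**Figure D5:**
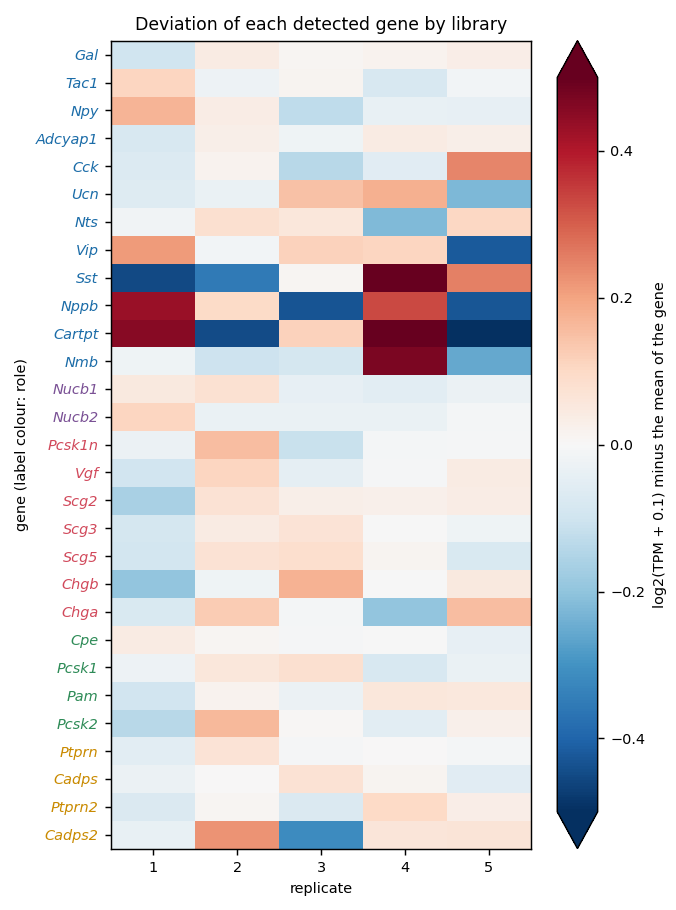
Log2(TPM + 0.1) minus the mean of the gene for the 29 detected members (rows, grouped by role by label colour) in replicates 1 to 5; blue is below and red above the mean of the gene. The column of replicate 1 is mostly blue for granins, and the strongest colours are in the low genes Sst, Nppb, Cartpt and Nmb.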

How the data were processed

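RNA from 5 pooled-well cultures was sequenced after poly-A selection. The submitters' processing notes name Salmon 1.5.1, Trim Galore 0.6.6, cutadapt 2.8 and the build mRatBN7.2. Their settings were not given in the sources used here. TPM per gene came from the combined table that the authors deposited. TPM and an estimated count per transcript, for 98811 transcripts, came from the deposited Salmon files.

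Transcripts were joined to genes by RefSeq accession without version through a table of GRCr8, which named 67330 (68.1%). Reads of a gene were called recovered where named transcripts came within 10% of its TPM in every library (27 of 34 members). Estimated counts were rounded. Ratios with a pseudocount of 0.1 were fitted with limma 3.58.1 (intercept only, trended empirical Bayes, two-sided) for all genes against each denominator, with Benjamini-Hochberg adjustment over all genes. They understate the ratio for low genes. The exact sign-flip test has 32 patterns and cannot go below p = 0.0625. Spread was tested with edgeR 4.0.16 (TMM, filterByExpr), checked on simulated data. R was 4.3.3.

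All 34 members were named, with both genes of each pair, the 3 highest genes of each other list and transcripts with 10% or more of a gene; cell marker lists are given as counts. Other genes were chosen after their values were seen. Members, lists, pairs and tests were chosen with earlier results of these data known. Protein features were not analysed here. Some genes of the other lists are not reported here. The libraries held 21596608 to 27913098 estimated reads.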

Additional observations from a re-analysis of the deposited data

Results flagged for a closer look

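Of 89 sets of 5 values examined, 9 (10.1%) had a library far from the other 4 by Dixon's criterion at 95%. Chance gives about 1 in 20 for independent, normally distributed sets. These sets overlap, since they hold genes, their sums, their ratios and transcript shares of the same gene. A set with 4 values of 0 passes by construction, as for Grp and the Ptprn2 transcript below. The share of 10.1% is therefore no measure of an excess over chance. Replicate 1 stood apart for Gal (lowest, 307 TPM against 332 to 339 TPM), Scg2 (lowest, 165 TPM against 188 to 194 TPM) and Nucb2 (highest, 133 TPM against 120.4 to 123 TPM). Replicate 2 was highest for the sum over the 34 genes, at 3527 TPM against 3310 to 3367 TPM. It was also highest for the share of the Adcyap1 transcript of 3289 bases, at 36.0% against 0 to 4.20%. Nmb was highest in replicate 4, at 1.91 TPM against 1.11 to 1.33 TPM. The Tac1 transcript of 1004 bases was lowest in replicate 4, at 47.5% of Tac1 against 50.9% to 51.8%. In replicate 5, Grp had 0.247 TPM from 2 reads against 0 elsewhere, and the Ptprn2 transcript of 2989 bases held 11.1% of Ptprn2 against 0 elsewhere.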

How the results depend on the processing

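No paired comparison of conditions was possible because all 5 libraries belong to 1 group, and the gene ratios were taken within each library. Among the alternative values, 243 kept their direction and their side of the threshold or stayed within 1.5 times the count, 6 reversed, 4 lost the call and 1 count moved further. The alternatives covered pseudocounts, filters, scaling, the source table, trend and leaving out each library. In estimated counts scaled to library size but not to length, the log2 ratio turned to −1.04 for Tac1 over Adcyap1, −0.70 for Pcsk1n over Pcsk1, 3.96 for Nucb2 over Nucb1 and −1.51 for Cadps over Unc13a, and that of Sst over Nppb was 0.50 (limma adjusted p = 0.0987). With named transcripts summed, the ratio was 4.64 for Nucb2 over Nucb1 and −0.96 for Cadps over Unc13a. By construction both of these settings leave out unnamed transcripts, which held most of Nucb1, Vgf, Cadps and Cadps2, and the first also drops the length scaling. Leaving out 1 library moved the ratio of Sst over Nppb between 0.38 and 0.77, with adjusted p between 0.00422 and 0.176, and the count of members beyond counting error between 6 (without replicate 1) and 15. The cause of that drop was not tested. Detected members numbered 29 at 0.5 TPM, 26 at 2 TPM and 28 with named transcripts summed. Depth limits the 5 undetected genes and the low precursors Sst, Nppb, Cartpt and Nmb, which rest on 75 to 140 reads.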
